A study of Mus musculus with 6 samples.

Results

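Insulin acts on hepatocytes through a receptor tyrosine kinase that phosphorylates adaptor proteins, which recruit phosphoinositide 3-kinase and thereby activate the kinase AKT. AKT phosphorylates the forkhead transcription factors of the FOXO class and holds them outside the nucleus, so their targets are transcribed when insulin is low. In fasting, glucagon and glucocorticoids induce coactivators such as PGC-1 alpha, and the adaptor gene Irs2 is a classic gene of the fasted liver. The 9 genes of this system treated here were chosen by their symbols: Insr, which encodes the insulin receptor, the adaptor genes Irs1 and Irs2, the kinase gene Akt2, the FOXO genes Foxo1 and Foxo3, the coactivator gene Ppargc1a, the pseudokinase gene Trib1 and the glucose transporter gene Slc2a2. All 9 members were found among the 23291 gene symbols of each table.

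RNA sequencing was done on total RNA of snap frozen liver from C57BL/6 mice. Mice of the diet group ate a high fat (Western) diet over 3 months. The dabigatran group ate this diet over the same 3 months with 10 mg/g dabigatran etexilate added, an oral prodrug of the thrombin inhibitor dabigatran. The labels number replicates 0, 1 and 2 in both groups, and dabigatran replicates 0 and 1 have tables with the same value for each of the 23291 genes. Both tables were treated as a single library, named dabigatran replicate 1, which leaves 3 diet libraries and 2 dabigatran libraries. No group without the high fat diet was analysed here, and neither the sex and age of the mice nor the hour and feeding state at which liver was taken are given in the sources used here. That replicates are separate animals rests on the count of mice in the series design. Values are FPKM (fragments scaled to gene length and to the mapped fragments of the sample). This scaling does not correct for a few abundant genes that take a larger share of the fragments in a library.

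The shallowest library, diet replicate 1, had 0.761 times the depth of the deepest, diet replicate 0, as read from the steps of low values. Diet replicate 1 stood apart from the other diet libraries in several of the genes below, so each member's difference is also given without it. Hepatocyte markers were abundant in each library, with a summed level over 8 genes of 28020 to 30680 FPKM in the diet group, and 31169 and 44192 FPKM in dabigatran replicates 1 and 2. The summed level of 12 macrophage markers was 302 to 404 FPKM in the diet group and 420 and 305 FPKM with dabigatran, and that of 8 endothelial markers 94.8 to 100.03 and 97.5 and 95.3 FPKM. The endothelial sum held opposite differences. Of 7 tested markers, 5 (Stab2, Lyve1, Pecam1, Kdr and Oit3) had both dabigatran libraries above the diet libraries. Clec4g, with 50.4 to 53.6 FPKM in the diet group and 37.2 and 25.4 FPKM with dabigatran, had both below. Of 8 tested hepatocyte markers, 5 had both dabigatran libraries above the diet libraries and 1 (Ttr) had both below. Of 12 tested macrophage markers, only Cd163 lay apart. Cd163 had 3.38, 6.11 and 3.52 FPKM in the diet group, and 11.9 and 13.2 FPKM with dabigatran. Of all tested genes, 17.2% lay apart in each direction. No endothelial, hepatocyte or macrophage marker had a limma adjusted p under 0.05. The 6 adipocyte markers summed to 43.9 to 181 FPKM in the diet group, mostly Cfd and Fabp4, and to 16.0 and 34.3 FPKM with dabigatran. In each dabigatran library 5 of the 6 were listed at 0, and 2, 4 and 4 were in diet replicates 0, 1 and 2. Cfd had 150, 28.3 and 47.5 FPKM in the diet group, and 0 in both dabigatran libraries (limma adjusted p = 0.0110). Fabp4 had 29.3, 15.6 and 31.2 FPKM in the diet group, and 16.0 and 34.3 FPKM with dabigatran, so its groups overlapped. Adipoq was listed at 0 in all libraries but diet replicate 0. Stellate cell markers (8 genes) summed to 94.5 to 141 FPKM in the diet group and to 94.6 and 100.04 FPKM with dabigatran, bile duct markers (5 genes) to 32.8 to 51.9 and to 38.9 and 11.1 FPKM, and lymphocyte markers (7 genes) to 7.13 to 9.10 and to 8.05 and 3.55 FPKM. Dabigatran replicate 2 thus had the highest hepatocyte and the lowest bile duct and lymphocyte sums. Single genes were the largest part of these sums: Alb of the hepatocyte, Dcn of the stellate, Spp1 of the bile duct and Ptprc of the lymphocyte sum. Of 6 tested stellate markers, Reln had both dabigatran libraries above the diet libraries, and Lrat and Col3a1 had both below. Col3a1 had 6.26, 3.48 and 6.32 FPKM in the diet group, and 1.29 and 0.953 FPKM with dabigatran (limma adjusted p = 0.0674). Spp1 had 31.2 to 49.4 FPKM in the diet group, and 35.3 and 9.54 FPKM with dabigatran. Krt7, another bile duct marker, had 0.286 to 0.376 FPKM in the diet group and 0.371 FPKM in dabigatran replicate 2. Epcam and Sox9 were lowest in dabigatran replicate 2, at 0.276 and 0.908 FPKM. Diet replicate 1 was close to it, at 0.280 and 0.921 FPKM. Krt19 was listed at 0 in dabigatran replicate 2 and in diet replicates 1 and 2. The part of these sums in the results below was not tested. In bulk tissue, fewer cells of a type and less RNA per cell cannot be told apart.

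The upstream DNA of Irs1, Irs2 and Ppargc1a is shown because these 3 genes hold, in their last 250 bases before the RefSeq start, letters of motifs known for E-box factors, FOXO factors or the cAMP-responsive factor CREB. Promoter sequences were matched for 7 of the 9 members, and those of Insr and Trib1 were not used here. Sequences are from RefSeq on GRCm38.p6, written 5′ to 3′ on the strand of the gene. Capitals mark matches to any motif searched. The E-box is CACGTG, which reads the same on both strands. The core of the insulin response element is CAAAACA, which appears as TGTTTTG where it lies on the opposite strand. The half-site of the cAMP response element is TGACGT, which then appears as ACGTCA.
Irs1, chr1:82291440-82291689, minus strand: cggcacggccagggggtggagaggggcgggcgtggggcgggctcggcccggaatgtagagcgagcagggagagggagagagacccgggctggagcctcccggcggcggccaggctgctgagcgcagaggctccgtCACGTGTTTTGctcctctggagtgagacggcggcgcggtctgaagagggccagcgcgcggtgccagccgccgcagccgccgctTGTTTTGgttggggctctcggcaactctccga
Irs2, chr8:11008930-11009179, minus strand: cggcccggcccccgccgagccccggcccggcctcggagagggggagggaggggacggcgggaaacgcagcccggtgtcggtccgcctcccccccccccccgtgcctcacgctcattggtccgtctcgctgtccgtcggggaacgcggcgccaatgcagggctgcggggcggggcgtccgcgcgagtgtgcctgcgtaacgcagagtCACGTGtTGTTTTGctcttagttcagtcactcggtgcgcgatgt
Ppargc1a, chr5:51567726-51567975, minus strand: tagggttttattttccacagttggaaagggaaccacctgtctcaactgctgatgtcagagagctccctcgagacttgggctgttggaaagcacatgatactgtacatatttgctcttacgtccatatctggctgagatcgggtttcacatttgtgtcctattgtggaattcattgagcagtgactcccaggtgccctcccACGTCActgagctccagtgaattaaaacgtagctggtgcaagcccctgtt

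Irs1 and Irs2 both carried the E-box followed by TGTTTTG. In Irs1 the E-box began at base -115 and the insulin response element core at -111, so that they shared letters, and a second core began at -32. In Irs2 the E-box began at -44 and the core at -37. Among 32851 upstream windows of 250 bases, 6.0% held the E-box, 5.6% the insulin response element core on either strand and 0.3% both. The half-site of Ppargc1a began at -50, and 6.5% of all windows held such a half-site. The FOXO binding element GTAAACA, the full cAMP response element TGACGTCA and the HNF1 half-site GTTAAT were also searched on both strands, in 3.2%, 1.5% and 6.4% of all windows, and none of the 7 members' windows held one. These matches describe letters and not bound sites.

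All 9 members passed the filter on low values, which asked for at least 1 FPKM in 3 of the 5 libraries. Averaged over the 5 libraries, Slc2a2 had the highest level (59.2 FPKM), followed by Akt2 (25.1), Insr (18.04), Trib1 (11.3), Foxo1 (6.11), Foxo3 (3.60), Irs1 (2.71), Irs2 (2.03) and Ppargc1a (1.74). Slc2a2 lay above Akt2, and Akt2 above Insr, with no overlap of their ranges over libraries. From Insr downward the ranges of neighbours in this order overlapped, although Insr exceeded Trib1 and Foxo1 exceeded Foxo3 within each of the 5 libraries.

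None of the 9 members passed the test between groups (limma on log2(FPKM + 0.5), adjusted p under 0.05), where 0.127% of the 10247 tested genes were called higher and 0.303% lower. At an unadjusted p under 0.05, 1 member was higher (Foxo1) and 1 lower (Slc2a2), against 6.87% and 9.13% of all tested genes. The dabigatran libraries lay above all diet libraries in 2 members, Insr and Foxo1, and below them in none, against 17.2% of tested genes in each direction. The median absolute log2 difference was 0.28 over the members and 0.28 over all tested genes, so the members' differences were of the size found across the liver transcriptome. Of the 9 members, 5 had a positive and 4 a negative difference, and among the latter Akt2, at -0.02, was at 0.0084 after quantile normalization.

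**Figure D1:**
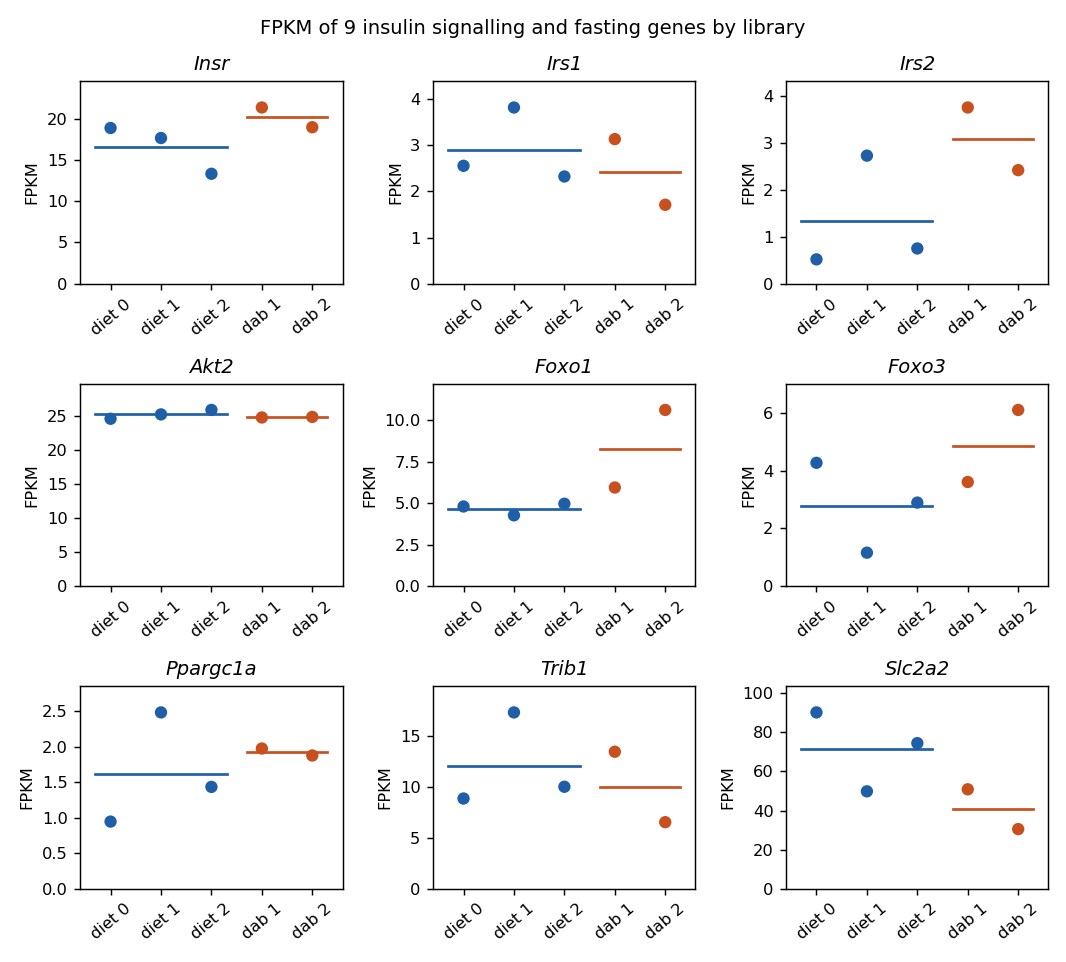
FPKM (vertical axis, from 0, a scale per gene) of each member in the 3 diet libraries (blue) and the 2 distinct dabigatran libraries (orange), with lines at the group means. The dabigatran points lie above every diet point for Insr and Foxo1, Akt2 is level at 24.6 to 25.9 FPKM, and diet replicate 1 is apart from the other diet libraries for Irs2.

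Insr (chromosome 8, 3122061 to 3279617) had 18.9, 17.7 and 13.3 FPKM in diet replicates 0, 1 and 2, and 21.4 and 19.0 FPKM in dabigatran replicates 1 and 2. The lower dabigatran value exceeded the highest diet value by a small margin, 18.97 against 18.88 FPKM. The means were 16.6 ± 2.92 FPKM (SD, n = 3) and 20.2 ± 1.69 (SD, n = 2), a log2 difference of 0.28 ± 0.21 (SE; 95% interval -0.21 to 0.77; limma adjusted p = 0.555). The 95% interval of the log2 difference spans fold changes from 0.868 to 1.71. The receptor transcript rested on 299 to 438 fragments per library (the smallest whole numbers that fit its FPKM values). Exact 95% Poisson intervals (counting error only) were 17.2 to 20.7 FPKM in diet replicate 0 and 17.01 to 21.1 FPKM in dabigatran replicate 2. The order of these libraries thus lies within counting error. The log2 difference of Insr was 0.33 without diet replicate 1 (adjusted p = 0.470) and 0.14 without diet replicate 2 (adjusted p = 0.839).

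The adaptor genes had unlike profiles. Irs2 (chromosome 8, 10984681 to 11008458), the adaptor that hepatocytes induce on fasting, had 0.518, 2.72 and 0.751 FPKM in diet replicates 0, 1 and 2, against 3.75 and 2.42 FPKM in dabigatran replicates 1 and 2. Diet replicates 0 and 2 lay below both dabigatran libraries, whereas diet replicate 1 lay between them. The fitted log2 difference was 1.14 ± 0.51 (SE; 95% interval -0.04 to 2.31; limma adjusted p = 0.327). It was the largest of the 9 in size with all 5 libraries, but not without diet replicate 0, where Foxo3 had 1.13 and Irs2 0.81, nor without dabigatran replicate 1, where Slc2a2, Foxo3 and Foxo1 (-1.17, 1.14 and 1.10) exceeded Irs2 (0.86).

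Few fragments stood behind the Irs2 values. The smallest set of whole fragments that gives the observed FPKM values was 5, 20 and 7 in the diet libraries and 31 and 18 in the dabigatran libraries. Exact Poisson intervals (95%, counting error only) for Irs2 ran from 0.168 to 1.21 FPKM in diet replicate 0 and from 1.43 to 3.82 FPKM in dabigatran replicate 2, without overlap. The interval of diet replicate 2, 0.302 to 1.55 FPKM, did overlap that of dabigatran replicate 2. The interval of diet replicate 1, 1.66 to 4.21 FPKM, was also apart from that of diet replicate 0, but overlapped those of both dabigatran libraries. Without diet replicate 1 the log2 difference was 1.64 (adjusted p = 0.0710), and without diet replicate 0 it was 0.81 (adjusted p = 0.618). Irs2 reached the filter through diet replicate 1 and the 2 dabigatran libraries, since the other diet libraries were under 1 FPKM.

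Irs1 (chromosome 1, 82233101 to 82291416) encodes the adaptor that serves insulin signalling mainly in the fed state. It had 2.55, 3.82 and 2.32 FPKM in the diet group, and 3.13 and 1.71 FPKM in the dabigatran libraries, on 30 to 66 fragments. The groups overlapped, and the log2 difference was -0.24 ± 0.33 (SE; 95% interval -1.01 to 0.53; adjusted p = 0.771). The difference was 0.12 without dabigatran replicate 2 and -0.05 without diet replicate 1 (adjusted p = 0.949 and 0.954). Exons of Gm9747 on the opposite strand overlap Irs1 and share 30.5% of its 50-base windows, so without strand their reads cannot be told apart there.

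The adaptors were also set side by side within each library. The ratio of Irs2 to Irs1 FPKM was 0.203, 0.714 and 0.323 in diet replicates 0, 1 and 2, and 1.20 and 1.41 in dabigatran replicates 1 and 2. Irs1 had the higher value in each diet library and Irs2 in each dabigatran library. The Poisson intervals of Irs1 and Irs2 overlapped in both dabigatran libraries and in diet replicate 1, so the order of the pair there lies within counting error. This ratio was chosen after the values were seen and was not tested.

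**Figure D2:**
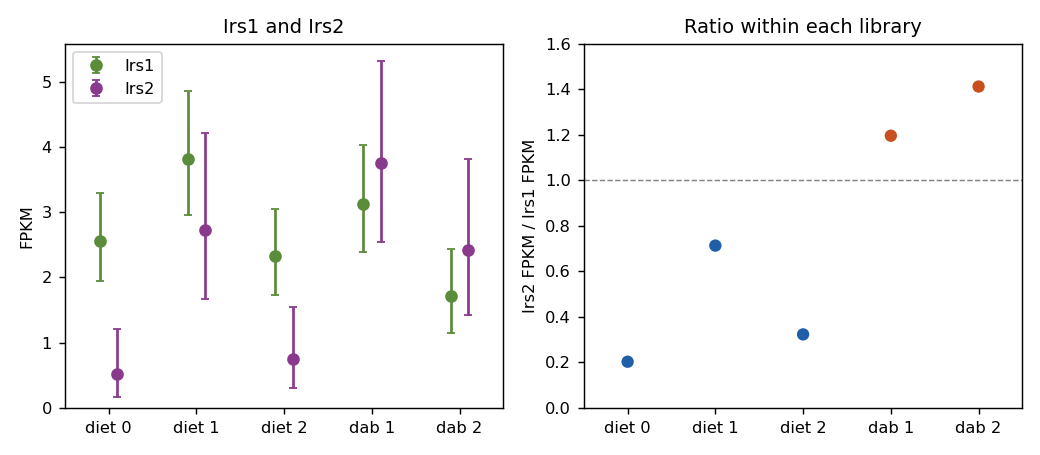
Left, FPKM of Irs1 (green) and Irs2 (purple) per library, with bars for exact 95% Poisson intervals that cover counting error only. Right, the ratio of Irs2 to Irs1 FPKM per library, with a dashed line at equal levels: the diet libraries lie at 0.203 to 0.714 and the dabigatran libraries at 1.20 and 1.41.

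Akt2 (chromosome 7, 27591552 to 27640826), the AKT kinase that carries most of the metabolic insulin signal in liver, was the steadiest member. It had 24.6, 25.2 and 25.9 FPKM in the diet group, and 24.8 and 24.8 FPKM in the dabigatran libraries. Over the 5 libraries its log2 values spanned 0.07, and 5 of the 10247 tested genes spanned less. The log2 difference was -0.02 ± 0.17 (SE; adjusted p = 0.961), and -0.02 without diet replicate 1 too. Its 95% interval of -0.41 to 0.36 corresponds to a fold change between 0.754 and 1.29, because limma draws the small spread of a single gene toward that of genes of similar level. Of its 50-base windows, 9.76% also occur in the pseudogene Akt2-ps.

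Foxo1 (chromosome 3, 52268336 to 52353221) encodes the main hepatic FOXO factor, which activates gluconeogenic genes when AKT is inactive. It had 4.80, 4.26 and 4.96 FPKM in diet replicates 0, 1 and 2, and 5.94 and 10.6 FPKM in dabigatran replicates 1 and 2. The diet libraries lay close together and below both dabigatran libraries, which differed from each other. The means were 4.67 ± 0.364 FPKM (SD, n = 3) and 8.27 ± 3.30 (SD, n = 2). The log2 difference was 0.71 ± 0.28 (SE; 95% interval 0.07 to 1.35; limma adjusted p = 0.266). Leaving out dabigatran replicate 2 lowered the difference to 0.32 (adjusted p = 0.778), and leaving out dabigatran replicate 1 raised it to 1.10 (adjusted p = 0.0875). Without diet replicate 1 it was 0.65 (adjusted p = 0.307). Foxo1 rested on 44 to 111 fragments per library, and 6.8% of its windows also occur in other genes, mainly in Gm20402 on the opposite strand.

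Foxo3 (chromosome 10, 42181841 to 42276755), a FOXO factor with functions that partly overlap those of FOXO1, varied more. It had 4.27, 1.16 and 2.89 FPKM in the diet group, and 3.60 and 6.10 FPKM in the dabigatran libraries, on 6 to 32 fragments. The groups overlapped, since diet replicate 0 exceeded dabigatran replicate 1, and diet replicate 1 was the lowest library. The log2 difference was 0.80 ± 0.45 (SE; 95% interval -0.25 to 1.84; adjusted p = 0.429), and 0.37 without diet replicate 1. Foxo1 and Foxo3 were both highest in dabigatran replicate 2 and both lowest in diet replicate 1.

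Ppargc1a (chromosome 5, 51454250 to 51567726) encodes PGC-1 alpha, the coactivator that fasting induces to drive gluconeogenic and mitochondrial genes. It had 0.945, 2.48 and 1.43 FPKM in the diet group, and 1.98 and 1.88 FPKM in the dabigatran libraries. Both dabigatran values lay within the diet range, between diet replicates 2 and 1. The log2 difference was 0.26 ± 0.37 (SE; 95% interval -0.60 to 1.12; adjusted p = 0.778). It was 0.54 without diet replicate 1 and 0.01 without diet replicate 0.

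Trib1 (chromosome 15, 59648350 to 59657099) encodes a pseudokinase that brings the transcription factor C/EBP alpha to the ubiquitin ligase COP1 and is linked to hepatic lipogenesis and plasma lipids. It had 8.88, 17.4 and 10.04 FPKM in the diet group, and 13.5 and 6.55 FPKM in the dabigatran libraries. The highest and the lowest value thus came from different groups, with overlap in between. The log2 difference was -0.28 ± 0.37 (SE; 95% interval -1.13 to 0.57; adjusted p = 0.749). It was -0.78 without dabigatran replicate 1 and 0.21 without dabigatran replicate 2, so the 2 dabigatran libraries lay on opposite sides of the diet mean. Without diet replicate 1 it was -0.0017 (adjusted p = 0.998). Irs1 and Trib1 were both highest in diet replicate 1, next in dabigatran replicate 1, and lowest in dabigatran replicate 2.

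Slc2a2 (chromosome 3, 28697903 to 28731359) encodes GLUT2, the facilitative transporter through which hepatocytes take up and release glucose. It had 90.2, 49.8 and 74.5 FPKM in diet replicates 0, 1 and 2, and 50.8 and 30.5 FPKM in dabigatran replicates 1 and 2. Diet replicate 1 lay just under dabigatran replicate 1, and the other diet libraries lay above both dabigatran libraries. The means were 71.5 ± 20.4 FPKM (SD, n = 3) and 40.7 ± 14.4 (SD, n = 2). The log2 difference was -0.81 ± 0.30 (SE; 95% interval -1.51 to -0.11; limma adjusted p = 0.251). With 141 to 540 fragments per library, counting error was small. The difference was -1.05 without diet replicate 1 (adjusted p = 0.0952) and -0.45 without dabigatran replicate 2 (adjusted p = 0.742).

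**Figure D3:**
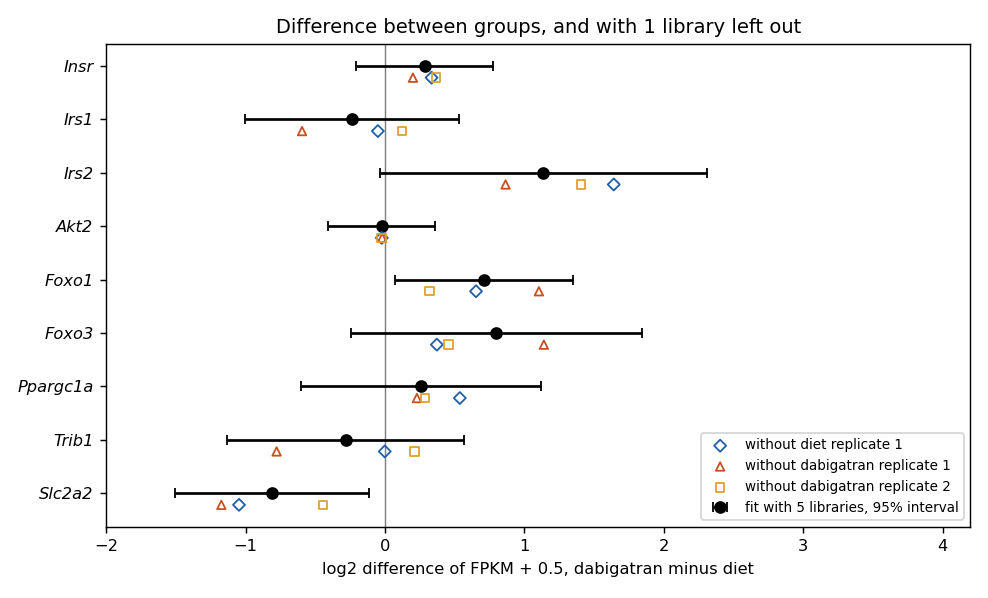
Log2 difference between the dabigatran and diet groups for each member (black points, with bars for 95% intervals of the limma fit) and the same difference with a library left out (open symbols). The intervals of Foxo1 (0.07 to 1.35) and Slc2a2 (-1.51 to -0.11) exclude 0 before adjustment, and the open symbols of Irs1 and Trib1 lie on both sides of 0.

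Targets of FOXO factors and other fasting genes were examined as a list. Of its 21 tested genes, 0 were called, with 15 higher and 6 lower values, beside 5315 and 4932 of all tested genes. At an unadjusted p under 0.05 there were 6 higher and 1 lower, beside 6.87% and 9.13% of all tested genes. The list's median log2 difference was 0.22, beside 0.02 for all tested genes. Igfbp1, which encodes an IGF binding protein that insulin represses through FOXO1, had 10.5, 104.8 and 15.6 FPKM in diet replicates 0, 1 and 2, and 211 and 116 FPKM in dabigatran replicates 1 and 2 (log2 difference 2.56 ± 0.83, SE; adjusted p = 0.203). As with Irs2, diet replicates 0 and 2 were low and diet replicate 1 was near the dabigatran libraries.

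Pck1, the gluconeogenic enzyme PEPCK, had 345, 1007 and 309 FPKM in the diet group, and 1145 and 735 FPKM with dabigatran (adjusted p = 0.381), again with diet replicate 1 among the dabigatran values. G6pc, the catalytic subunit of glucose-6-phosphatase, had 98.8, 312 and 119 FPKM and 318 and 116 FPKM (adjusted p = 0.818), so dabigatran replicate 2 lay with diet replicates 0 and 2. The lowest p values of the list belonged to Crtc2, a coactivator of CREB (log2 difference 1.07, adjusted p = 0.0784), and Tat, the tyrosine aminotransferase (1.99, adjusted p = 0.0869), followed by Igfbp1.

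Among genes that insulin induces, Srebf1, the lipogenic transcription factor gene, had 13.5, 5.45 and 18.2 FPKM and 8.88 and 5.74 FPKM (adjusted p = 0.560). Of 11 tested glycolytic and lipogenic genes on the list, 0 were called and 7 were lower, with a median of -0.60. Their lowest p values were those of Scd1 (adjusted p = 0.0751), Me1 (0.0802) and Elovl6 (0.0892), all with lower values with dabigatran.

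**Figure D4:**
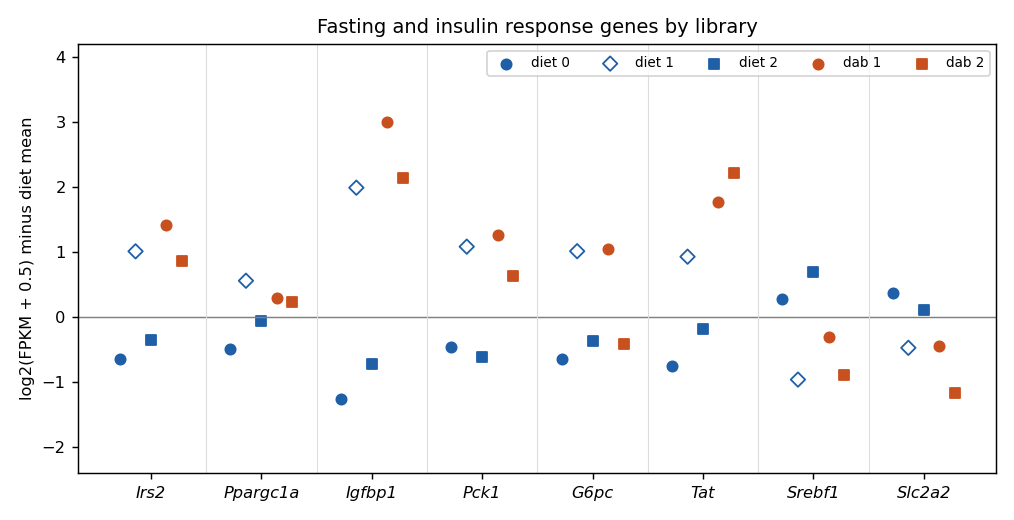
Level of 8 fasting and insulin response genes in each library as log2(FPKM + 0.5) minus the diet mean (diet libraries blue, with diet replicate 1 as open diamonds, and dabigatran libraries orange). Diet replicate 1 lies at 1.01 for Irs2 and 1.99 for Igfbp1, near the dabigatran libraries, and at -0.48 for Slc2a2, beside -0.45 in dabigatran replicate 1.

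No other gene of the insulin cascade was called. Of 26 tested genes for kinases, adaptors, regulatory subunits, the GTPase RHEB and other forkhead factors, 0 were called and 0 had an unadjusted p under 0.05. Their values were higher in 20 and lower in 6, with a median log2 difference of 0.14. The receptor gene Igf1r, at 0.173 to 0.368 FPKM in the diet and 0.625 and 0.434 FPKM in the dabigatran libraries, was below the filter and was not tested. The lowest p values were those of Prkcz, Pik3r2 and Pik3r1 (log2 differences of 0.38, 0.36 and -0.33, adjusted p = 0.493, 0.543 and 0.545).

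Among 14 tested brakes on the insulin signal, 0 were called. Socs2, a suppressor of cytokine signalling, had 6.13, 10.3 and 2.03 FPKM in the diet group, and 17.3 and 41.8 FPKM with dabigatran (log2 difference 2.28 ± 0.59, SE; adjusted p = 0.131). Prkce, a protein kinase C linked to lipid-induced insulin resistance, had a difference of -0.69 (adjusted p = 0.368). Of 3 insulin clearance genes, none was called. Ceacam1, which promotes hepatic insulin uptake, had 28.2, 33.4 and 25.3 FPKM and 44.4 and 38.5 FPKM (0.51, adjusted p = 0.250), with Erbb3 at 0.27 and Ide at -0.18.

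Partners of the regulators were also below the threshold. Of 10 PGC-1 partners, 0 were called, and the lowest p values were those of Esrra (log2 difference 0.88, adjusted p = 0.160), Hnf4a (0.69, adjusted p = 0.243) and Ppara (-0.73, adjusted p = 0.269). Of 5 TRIB1 partners, 0 were called. Cebpb, a C/EBP factor, had a difference of 0.58 (adjusted p = 0.253), Det1 of -0.39 and Cebpa, the factor that TRIB1 marks for degradation, of -0.15. Among 6 tested genes of hexose transport and trapping other than Slc2a2, 0 were called. Gckr, Khk, the fructokinase, and Slc2a9, a urate and hexose transporter, had differences of -0.62, -0.63 and -0.68 (adjusted p = 0.203, 0.237 and 0.269), each with both dabigatran libraries below the diet libraries, against 17.2% of all tested genes. Slc2a1, the GLUT1 gene, had both dabigatran libraries above the diet libraries (log2 difference 0.42, adjusted p = 0.468), and was named after its values were seen.

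Clock genes, whose products set the daily rhythm of many of these transcripts, were examined beside the members, and none was called. Per1 had 0.444, 2.45 and 0.643 FPKM in the diet group, and 6.63 and 9.90 FPKM with dabigatran (adjusted p = 0.0716). Dbp had 12.1, 4.59 and 10.00 FPKM and 1.25 and 1.74 FPKM (adjusted p = 0.0674), and Arntl 4.38, 5.18 and 4.53 FPKM and 9.03 and 9.12 FPKM (adjusted p = 0.108). Of 13 tested clock genes, 3 had both dabigatran libraries above and 5 had both below the diet libraries, against 17.2% of all tested genes in each direction. For Per1 and Dbp, diet replicate 1 was the diet library nearest to the dabigatran group, as for Irs2 and Slc2a2. The part of the clock genes in the members' differences was not tested.

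The tested genes of most similar pattern were listed for the members whose groups did not overlap, by the root mean square difference of centred log2 values over the 5 libraries. For Foxo1, Mybbp1a (0.0394) and Brpf3 (0.0573) were among the nearest. Mybbp1a had 7.67, 7.16 and 8.66 FPKM in the diet group, and 9.88 and 17.6 FPKM with dabigatran. For Insr they were Rnf214 (0.0382), Appbp2 (0.0425) and Coil (0.0475).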

How the data were processed

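Libraries of liver RNA used a TruSeq kit (per the labels). The authors deposited 1 FPKM value per gene symbol and library, as the column names state. The tools TopHat2 2.0.4, Cuffdiff, CASAVA, TopHat and R 2.15.1, with builds mm10 and GRCm38, are named in the submitters' processing notes. Gene annotation, use of strand and treatment of multiply matching reads were not given in the sources used here. When a few abundant genes take more fragments, FPKM falls for all other genes.

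Genes with at least 1 FPKM in 3 of the 5 distinct libraries were tested (10247). The test was limma 3.58.1 in R 4.3.3 on log2(FPKM + 0.5), with a variance trend, group as the only term, two-sided, and Benjamini-Hochberg adjustment over all tested genes at a threshold of 0.05. The steps were tested on simulated data. Differences on this scale understate the change of low genes, and p-values measure the spread between these libraries. Dabigatran replicate 0 was not analysed here.

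Fragments are the smallest whole numbers that fit a gene's values at the libraries' relative depths, within a relative tolerance of 2e-05. They were found for 80.9% of tested genes, against 0.5% of 1000 genes with randomly shifted values, and the real counts may be multiples. Genes whose fragments were over 5 times off those that exonic length gives were left out, Ppargc1a among them, and Akt2 gave no whole numbers. Coordinates and opposite-strand overlaps are from GENCODE M21 (GRCm38).

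The members and lists were chosen with earlier results of these data known. Named genes are the 9 members, Igfbp1, G6pc, Pck1, Srebf1 and Igf1r, up to 3 genes per list in order of unadjusted p, and the 3 genes nearest in pattern to up to 3 members whose groups do not overlap. Some genes that this rule gives are not reported here. Alternatives were other pseudocounts, filters, scalings and variance models, a block on the replicate number, voom on fragments and leaving out each library.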

Additional observations from a re-analysis of the deposited data

How the results depend on the processing

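No member was called under any of the 14 alternatives. The signs of Insr, Irs2, Foxo1, Foxo3, Ppargc1a and Slc2a2 held wherever they were tested. The sign turned for Akt2 with quantile normalization (0.0084), and for Irs1 (0.12) and Trib1 (0.21) without dabigatran replicate 2, where leaving out single libraries gave -0.60 to 0.12 for Irs1 and -0.78 to 0.21 for Trib1. The lowest adjusted p of any member was 0.0710 (Irs2 without diet replicate 1). With at least 5 FPKM, Irs1, Irs2, Foxo1, Foxo3 and Ppargc1a were not tested, and voom on fragments gave no value for Akt2 and Ppargc1a. Without a dabigatran library the other is assumed to vary like the diet libraries. Over all genes, 44 were called. The count was 23 with a pseudocount of 0.1, 0 without a filter on low values, 27 after quantile normalization, 0 without a variance trend and 88 with voom on whole fragments, with 1612, 1933, 1647, 1562 and 1287 genes at an unadjusted p under 0.05. Leaving out 1 library gave 0 to 294 called genes, with 1 without diet replicate 0, 294 without diet replicate 1, 0 without diet replicate 2, 275 without dabigatran replicate 1 and 0 without dabigatran replicate 2, where 1107 and 1010 genes had an unadjusted p under 0.05 without diet replicate 2 and dabigatran replicate 2. A replicate block on the label numbers gave 13 called genes and 0 called members. The labels give same-numbered libraries only a shared number. The correlations of their deviations from the group means across genes were -0.0448 and -0.0255 for numbers 1 and 2. With 2 dabigatran libraries these deviations mirror each other, so the correlations cannot show whether the numbers mark pairs. The cause of the changes across settings was not tested. The smallest fragment counts of Irs2 and Foxo3 were 5 and 6.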
